A study of Homo sapiens with 14 samples.

Results

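Among the many transcripts measured after knockdown of LINC00152, 10 long noncoding RNAs that have been linked to glioma are described here: MALAT1, NEAT1, H19, MEG3, GAS5, SNHG1, OIP5-AS1, LINC00673, PVT1 and TUG1. A probe was taken as theirs when the transcript identifier given for it on the array belongs to the gene in the RefSeq gene table, and 1 probe each of OIP5-AS1 and LINC00673 was assigned by its name. Of the 10 genes, 9 have at least 1 probe, against 20992 genes that could be named on the whole array. They hold 35 of 50599 probes: 9 for PVT1, 8 for MALAT1, 5 for MEG3, 4 for NEAT1, 3 for LINC00673, 2 each for H19 and OIP5-AS1, and 1 each for GAS5 and SNHG1. No probe was matched to TUG1 through the table, so it has no value in what follows, and probes that carry identifiers outside RefSeq were otherwise not matched.

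The data come from 14 one-colour arrays of 2 established human glioblastoma lines, A172 and U87-MG. Cells were electroporated with 20 pmol/ml of either a negative control siRNA without an RNA target or an siRNA against exon 1 of LINC00152, and RNA was taken after 40 h by the labels (the study's own text gives a longer time for the arrays). A172 has 3 control and 3 siLINC00152 arrays and U87-MG has 4 and 4, from experiments that the labels call independent, and a set number joins each control array to its knockdown array. Both arms of a line share the electroporation and the culture, and the negative control siRNA is the sole comparison for the effect of the knockdown.

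Of 2 siRNAs to exon 1 in the supplement, the labels do not say which was used. A figure of the study shows the knockdown in both lines for the first of them. It is printed here, in lower case throughout, because every comparison rests on the knockdown:
siLINC00152 #1: tgcctgtcttcagatcttcacagca

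Long noncoding RNAs act without being translated, and several of those named here are among the most abundant nuclear transcripts of human cells. MALAT1 gathers in nuclear speckles, where splicing factors are stored, and NEAT1 is the scaffold of paraspeckles. H19 and MEG3 are imprinted, GAS5 and SNHG1 carry small nucleolar RNAs in their introns, OIP5-AS1 binds microRNAs and RNA-binding proteins in the cytoplasm, PVT1 lies next to MYC, and in gliomas most of them have been studied for effects on growth or invasion.

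No probe of the 9 genes passed the test in either line when each knockdown group was compared with its control group. With the set number added to the model as a replicate block, 1 probe of OIP5-AS1 alone passed in each line. That probe was named with earlier results of these arrays known. In A172, differences between sets were far larger than differences between arms for MALAT1 and NEAT1, whose levels in set 2 lay several log2 units under those of sets 1 and 3, in control and knockdown arrays alike. LINC00673, H19, MEG3, GAS5 and PVT1 showed no tested probe past the threshold with or without the block. LINC00673 probe A_19_P00319646, lower in 3 of 3 A172 pairs, failed the filter for signal and was not tested, and the SNHG1 probe was not tested either.

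Levels are given as the log2 of the scanner's processed signal minus the 75th percentile of that array, so that a value of 0 stands at the 75th percentile of all non-control spots. The scanner marks each spot that is well above background, and a probe takes the mark where at least 0.5 of its spots have it. Testing in a line required the mark on at least 3 arrays of either arm. By this rule 26 of the 35 probes were tested in A172 and 24 in U87-MG, each time from 8 genes, and 23 entered the test of the difference between lines. The 6 A172 arrays had 25 to 33 of the 35 probes well above background, and the 8 U87-MG arrays had 21 to 27. The share of all spots that were well above background was 57.3% to 69.0% in A172 and 35.7% to 48.3% in U87-MG. The A172 arrays sit on 3 slides with 1 pair each and all U87-MG arrays sit on 1 other slide scanned on another day, so that levels of the lines cannot be told apart from slide and scan, nor can sets of A172 from slides.

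**Figure D1:**
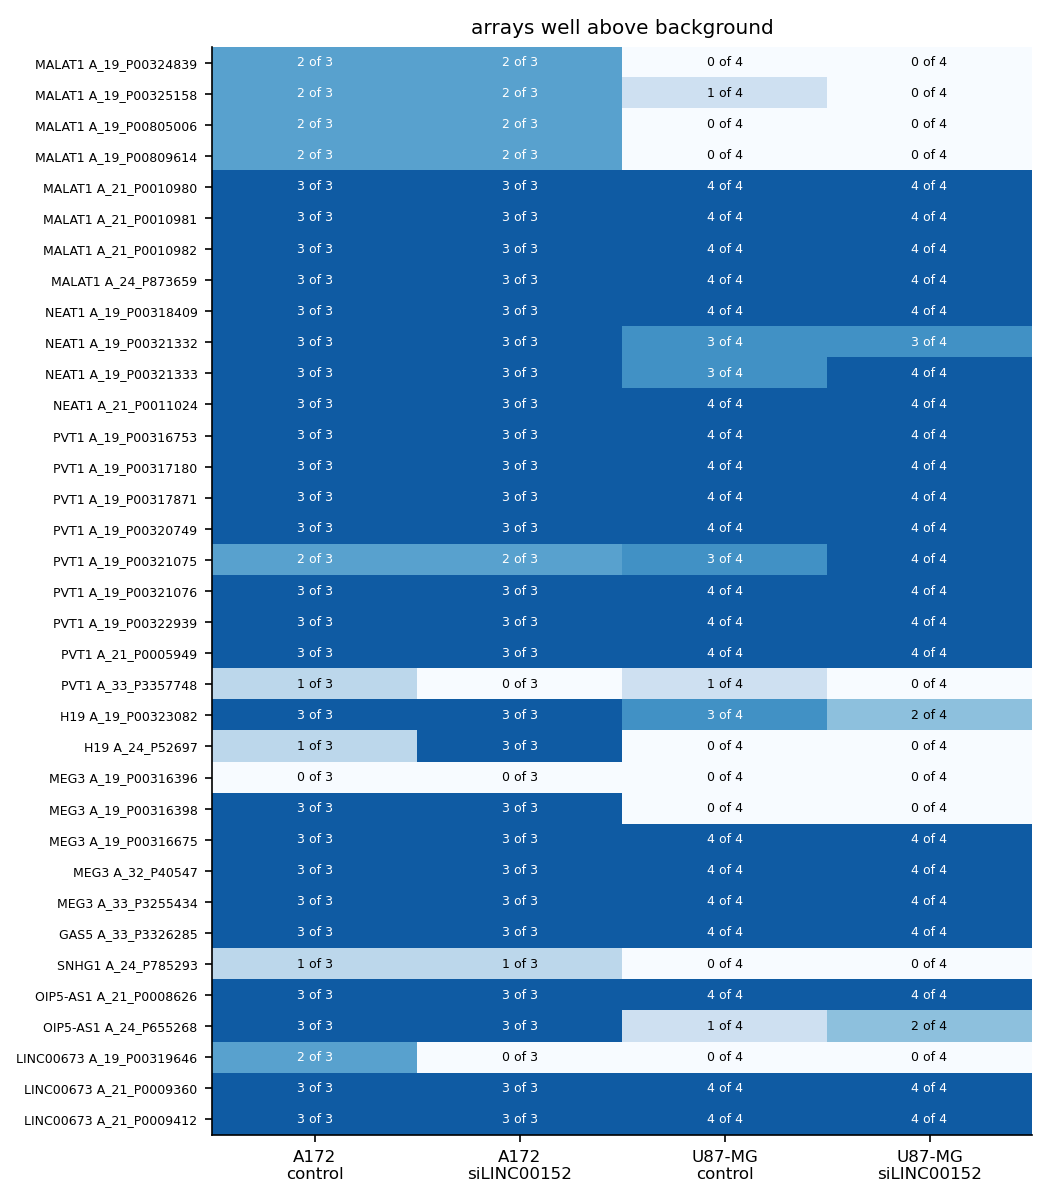
Number of arrays of each group on which each of the 35 probes was well above background. MALAT1 has 4 probes that are well above on 2 of 3 arrays in both A172 arms, and SNHG1 on at most 1 of 3.

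With limma, 0 of the 26 tested probes were called in A172, a call meaning a false discovery rate below 0.2 with a log2 fold change beyond 0.5 in size, and 0 had an unadjusted p under 0.05. Over all probes tested in A172, 52 of 28338 were called (0.183%), 39 lower and 13 higher, and 2.28% had an unadjusted p under 0.05. In U87-MG 0 of 24 were called and 1 had an unadjusted p under 0.05, beside 11 of 21921 probes called (0.0502%) and 2.31% under that p. For the difference of the knockdown effect between lines 0 of 23 were called and 0 had an unadjusted p under 0.05. Of all 21163 probes 2 were called (0.00945%) and 0.789% were under that p. The lncRNA probes had a median log2 fold change of -0.07 in A172 (14 lower, 12 higher), where the median of all probes was 0.02, and of -0.09 in U87-MG (16 lower, 8 higher), where it was -0.02. Probes of the same gene share their target and are not independent measurements of it.

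The set numbers of the labels pair the arrays, and a block for them removes the level that a set shares. By deviations from the group means, the control array matched the knockdown array of its own number best in 3 of 3 A172 sets. In U87-MG this held in 3 of 4 sets. There control set 1 correlated at 0.403 with knockdown set 2 and at 0.373 with its own. With the block, 1 of the 26 probes was called in A172 and 4 had an unadjusted p under 0.05, beside 924 probes called (3.26%) and 10.7% of all probes under that p. For U87-MG it was 1 of 24 called and 3 under that p, beside 918 called (4.19%) and 16.8% under that p. For the difference between lines the block gave 0 of 23 called and 0 with an unadjusted p under 0.05, beside 89 called (0.421%) and 8.31% under that p. The call in A172 and the call in U87-MG were of the same probe, A_21_P0008626 of OIP5-AS1. The counts of called lncRNA probes are too small to set them apart from those shares.

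**Figure D2:**
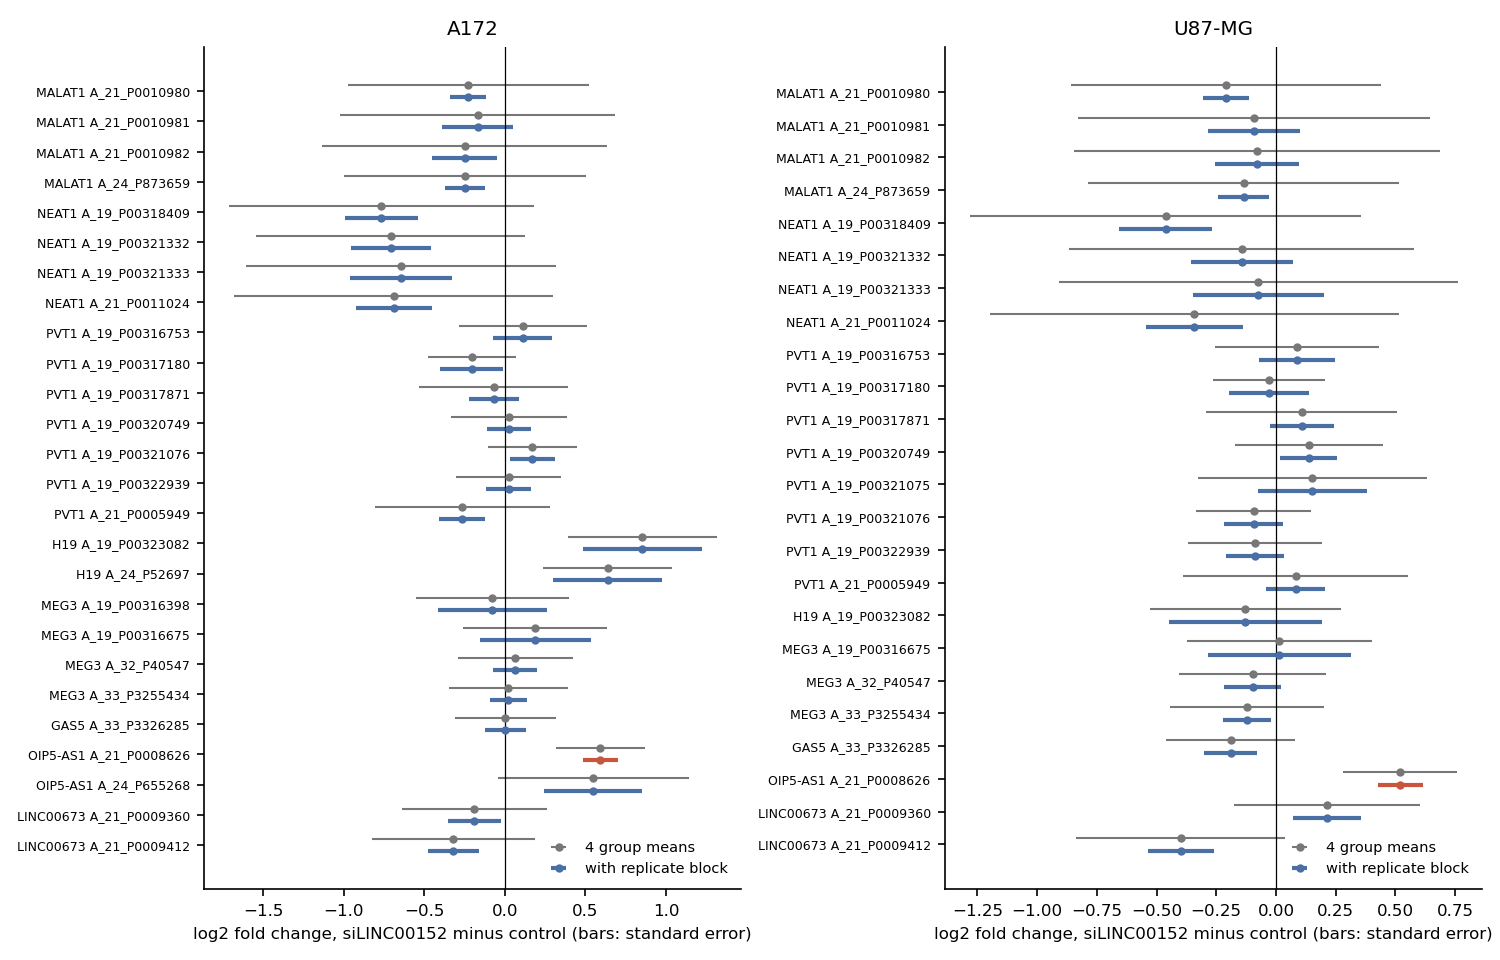
Log2 fold change of each tested probe, with its standard error from the model of 4 group means (grey) and from the model with the replicate block (blue, and red where called). The block leaves the estimates where they are and shortens the bars most for MALAT1 and NEAT1.

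MALAT1 and NEAT1 are neighbouring genes whose transcripts stay in the nucleus. In A172, MALAT1 by its brightest probe, A_21_P0010980, was at 6.50, 3.49 and 5.92 in control sets 1, 2 and 3 and at 6.14, 3.30 and 5.79 in the knockdown. Set 2 is far below the other sets in both arms, the arms overlap, and within each set the knockdown array is slightly lower. NEAT1 by probe A_19_P00318409 was at 5.46, 1.17 and 4.36 in control and at 4.35, 0.84 and 3.50 in knockdown arrays. Again set 2 is lowest in both arms, set 1 is highest, and each knockdown array is below the control array of its set.

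The 4 tested MALAT1 probes were lower in the knockdown in every A172 pair, with log2 fold changes of -0.25 to -0.17, and so were the 4 NEAT1 probes, with -0.77 to -0.64. None was called: standard errors were 0.75 to 0.88 for MALAT1 and 0.83 to 0.99 for NEAT1, and with the replicate block the lowest adjusted p was 0.563 for MALAT1 and 0.222 for NEAT1. For the brightest MALAT1 probe the 95% interval with the block runs from -0.48 to 0.03, and for NEAT1 probe A_19_P00318409 from -1.29 to -0.25. The NEAT1 value comes close to the threshold, and its call with the block depends on the processing: under normexp background correction with quantile normalization all 4 NEAT1 probes were called lower (adjusted p 0.0581 to 0.150), and 2 were called with a trended and robust variance (0.0708 and 0.124). Without set 3 of U87-MG, probes A_19_P00318409 and A_21_P0011024 were called in A172 with the block (0.104 and 0.113), and A_19_P00318409 in U87-MG (-0.66, 0.179). The share of all probes called in these altered fits with the block is not given here. The NEAT1 calls therefore cannot be set apart from a change in that share.

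In U87-MG the same MALAT1 probe was at 4.46, 4.22, 5.06 and 5.16 in control sets 1 to 4 and at 4.20, 4.06, 4.92 and 4.89 in the knockdown. Each knockdown array is below its control by a small step, and the arms overlap. NEAT1 probe A_19_P00318409 was at 3.98, 3.66, 3.64 and 4.74 in control and at 3.00, 3.19, 3.77 and 4.20 in the knockdown. It is lower in 3 of 4 pairs and higher in set 3, and the arms overlap. Set 3 had the fewest spots well above background of that line, 35.7% in control and 40.4% in knockdown. The part of that in these values was not tested. Fold changes in U87-MG were -0.21 to -0.08 for the 4 MALAT1 probes and -0.46 to -0.07 for the 4 NEAT1 probes, none called, with a lowest blocked adjusted p of 0.319 and 0.285. Of the MALAT1 probes, 1 of 4 was lower in every U87-MG pair, and of the NEAT1 probes 0 of 4. In fits without the block, MALAT1 probe A_21_P0010982 was at -0.47 without the control array of set 3 and at 0.30 without that of set 4. NEAT1 probe A_19_P00321333 was at -0.53 and 0.24 in the same fits. The probes printed above stayed lower with any array or set left out, at -0.38 to -0.06 for MALAT1 and -0.68 to -0.22 for NEAT1.

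**Figure D3:**
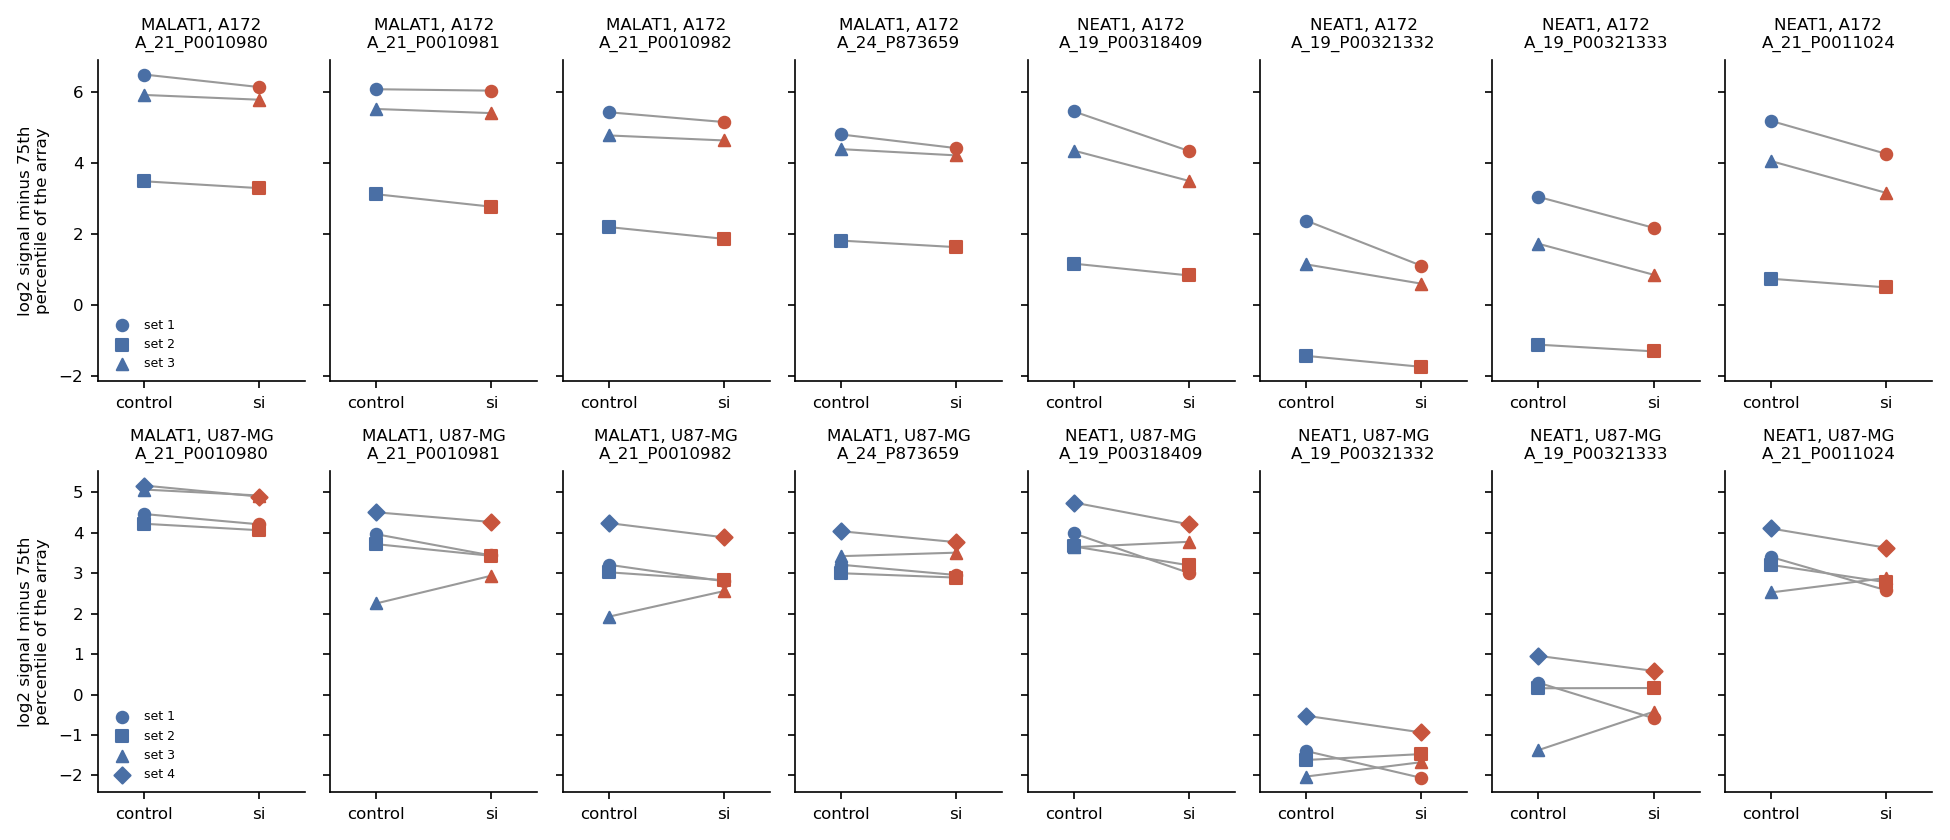
Values of the 4 tested MALAT1 probes and the 4 NEAT1 probes in every array, joined by set number. In A172 (top) set 2 lies far below sets 1 and 3 in both arms, and in U87-MG (bottom) no set stands apart in that way.

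The low level of set 2 in A172 was measured for all 8 of these probes. The mean of its control and knockdown array lay under the mean of the other sets by -2.69 to -2.97 log2 units for the MALAT1 probes and by -2.89 to -3.54 for the NEAT1 probes. Across the array 70 of 28321 probes (0.247%) had set 2 more than 2 log2 units below the other sets, and these 8 are among them, as 11.4% of that list and 8 of the 26 lncRNA probes. The pattern was noticed in the data and carries no test. It was found for 8 probes in the control arrays taken by themselves and for 8 in the knockdown arrays, and for 7 to 8 under the other normalizations. With no filter it held for 12, which adds the 4 dim MALAT1 probes.

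Those 4 dim MALAT1 probes repeat it at lower signal. They were well above background on 2 of 3 control and 2 of 3 knockdown arrays in A172, missing set 2 each time, and so failed the filter. A_19_P00325158, for example, was at 0.45, -3.12 and 0.76 in control and at 0.26, -3.27 and 0.52 in the knockdown. Each of the 4 was lower in the knockdown in 3 of 3 pairs, and 3 of them were above background on no U87-MG array.

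Among the 8 lncRNAs with a tested probe in A172, none but MALAT1 and NEAT1 had so large a step in set 2. PVT1 probes A_21_P0005949 and A_19_P00317871 came nearest, at -1.79 and -1.46, while PVT1 probe A_19_P00320749 stood at 0.50, MEG3 probe A_32_P40547 at 0.97 and GAS5 at -0.45. In U87-MG 0 of 24 probes differed by that much in any set, although set 3 there had 873 of 21892 probes (3.99%) that far below.

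The other 62 probes that were low in A172 set 2 include some with Ensembl identifiers, which were not matched to genes, so that further MALAT1 or NEAT1 probes may be among them. Also in that list are probes of VWA1 (-4.14), DST (-3.12) and GOLGA8A (-2.47), named after their values were seen. FRMD8 and LTBP3, which lie near MALAT1 and NEAT1, did not share it by their brightest probe: set 2 stood at 0.47 for FRMD8 and 0.61 for LTBP3. Of 31 probes for paraspeckle and nuclear speckle proteins 0 were that low (median -0.28), with NONO at -0.19, SFPQ, a core paraspeckle protein, at -1.04 and SRRM2, a scaffold of speckles, at -0.14. A172 set 2 also had the fewest spots well above background of that line, 57.6% in control and 57.3% in knockdown, and its part in the low MALAT1 and NEAT1 values was not tested. The 13 probes for RNA quality and stress genes had a set 2 median of -0.27, with 0 below by more than 2. The set 2 median of all tested A172 probes was 0.22, above the medians of this list and of the speckle proteins. Because 0.247% of all probes were that low, counts of 0 in lists this short cannot decide anything. The part of RNA quality was not tested. In RNA from whole cultures, fewer cells with a transcript and less of it in each cell cannot be told apart.

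**Figure D4:**
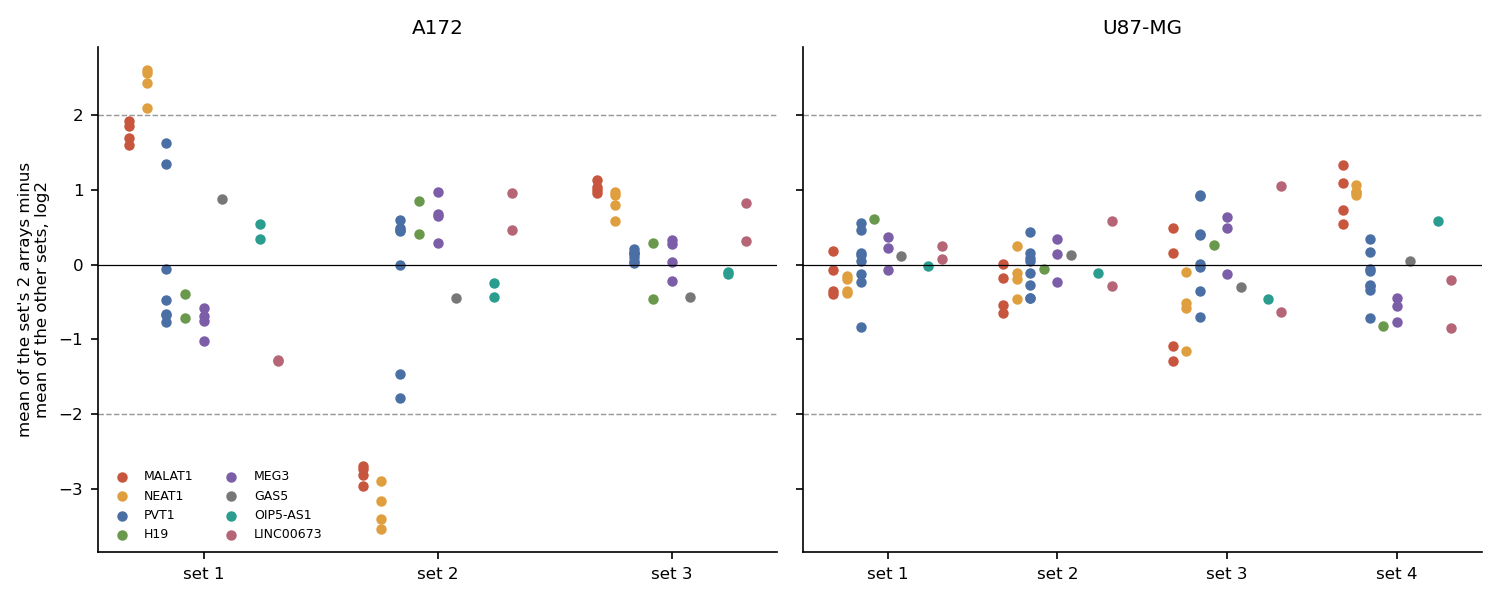
For each tested lncRNA probe, the mean of a set's 2 arrays minus the mean of the other sets of that line. Dashed lines mark differences of 2 log2 units, which MALAT1 and NEAT1 pass in A172 set 2. NEAT1 also passes in A172 set 1, where the low set 2 is part of the mean it is compared with.

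The promoter of MALAT1 is shown because its probes moved together across the sets of A172. RefSeq promoter windows, from 250 bases before to 50 after a start, were found for 8 of the 10 genes, and for MALAT1 the window of the outermost start is chr11:65497488-65497787, plus strand, GRCh38.p14. Capitals mark matches on either strand to the GC box GGGCGG, the CCAAT box and the TATA box core TATAAA:
MALAT1: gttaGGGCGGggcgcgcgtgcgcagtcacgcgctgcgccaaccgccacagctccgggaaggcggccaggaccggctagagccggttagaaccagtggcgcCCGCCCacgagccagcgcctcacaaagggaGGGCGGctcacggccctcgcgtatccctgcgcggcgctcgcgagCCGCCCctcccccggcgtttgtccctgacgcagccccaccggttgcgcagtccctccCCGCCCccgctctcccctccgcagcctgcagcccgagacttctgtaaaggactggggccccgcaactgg
This window holds 5 matches to GGGCGG, 2 on the plus strand and 3 on the other, and 0 to TATAAA and CCAAT, with 0 overlaps between matches. Of 35114 RefSeq windows of this length, 45.0% hold GGGCGG, 34.6% hold CCAAT, and 4049 windows hold TATAAA, and a match describes the letters alone. NEAT1 and PVT1 are the 2 genes with no window used.

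OIP5-AS1, a cytoplasmic RNA that binds the protein HuR and several microRNAs, was the one of the 9 lncRNAs with a probe that was called in the model with the block. In A172 probe A_21_P0008626 was at 1.00, 0.63 and 0.69 in control sets 1, 2 and 3 and at 1.60, 1.19 and 1.32 in the knockdown. All 3 knockdown arrays are above all 3 control arrays, and the 3 differences within pairs are almost the same, 0.60, 0.56 and 0.62. In U87-MG it was at 0.46, 0.39, 0.02 and 0.90 in control sets 1 to 4 and at 0.93, 0.85, 0.69 and 1.38 in the knockdown. There each knockdown array is above its own control, while the arms overlap because control set 4 is higher than 2 of the knockdown arrays.

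The log2 fold change was 0.59 in A172 (higher in 3 of 3 pairs) and 0.52 in U87-MG (higher in 4 of 4 pairs). Without the block neither was called, with standard errors of 0.28 and 0.24, unadjusted p of 0.0502 and 0.0475 and an adjusted p of 1.00 in each line. With the replicate block OIP5-AS1 probe A_21_P0008626 was called higher in both lines, with standard errors of 0.11 and 0.09. The adjusted p was 0.0611 and 0.0685, with 95% intervals of 0.34 to 0.84 and 0.30 to 0.74. The fold changes differed between lines by 0.07 (standard error 0.37, adjusted p 1.00, and 0.895 with the block). The calls rest on every pair: with the block, the A172 fold change was 0.59, 0.61 and 0.58 without sets 1, 2 and 3 in turn, and its adjusted p 0.249, 0.305 and 0.363, none a call. In U87-MG the fold change was 0.54, 0.54 and 0.53 without sets 1, 2 and 4 and the adjusted p 0.207, 0.201 and 0.206, and without set 3 it was 0.0915 at a fold change of 0.47, under the fold threshold.

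Across 16 alternatives run together with the block, the A172 call of OIP5-AS1 held in 10 and the U87-MG call in 8, and the fold change stayed positive, at 0.44 to 0.61 and 0.34 to 0.58. The adjusted p was 0.00918 to 0.363 in A172 and 0.0162 to 0.225 in U87-MG. The lowest of these belong to normexp correction with quantile normalization, where the fold changes of 0.44 and 0.34 were under the threshold of 0.5. These runs were chosen after seeing the data, as was the attention to this probe, which was named with earlier results of these arrays known. The p-values of the probe are therefore no independent evidence of a rise.

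**Figure D5:**
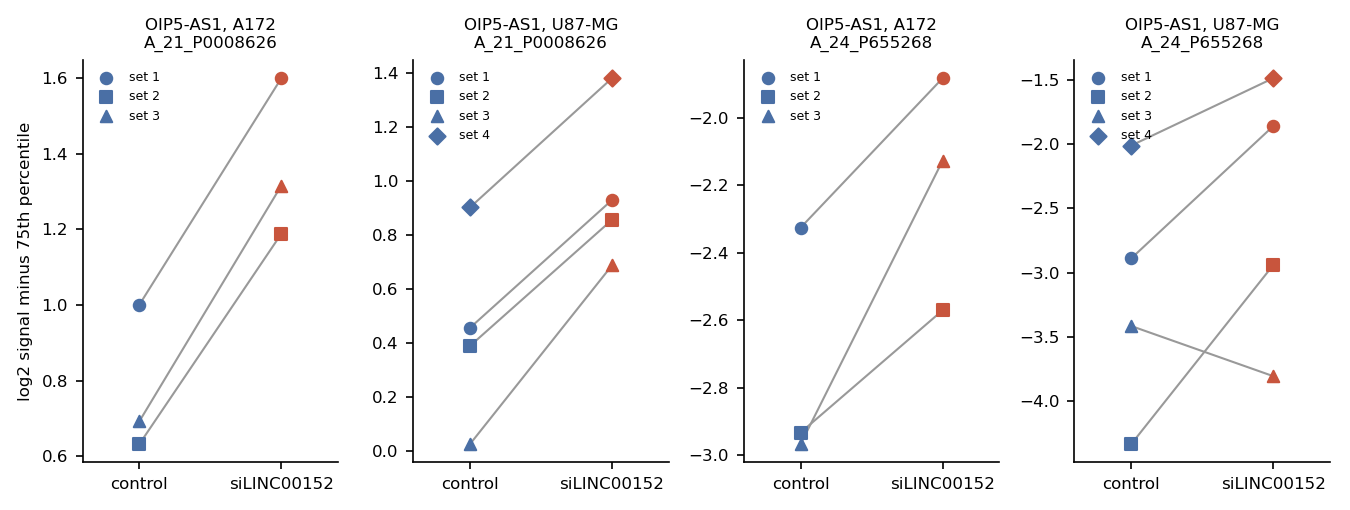
OIP5-AS1 values in every array by its 2 probes, joined by set number. Probe A_21_P0008626 is higher after knockdown in 7 of 7 pairs, and A_24_P655268 in all A172 pairs and 3 of 4 U87-MG pairs at much lower signal.

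The second OIP5-AS1 probe, A_24_P655268, gave the same direction in A172 without a call. It was at -2.33, -2.93 and -2.97 in control and at -1.88, -2.57 and -2.13 in the knockdown. The knockdown array is higher in 3 of 3 pairs, while the lowest knockdown value is under the highest control value. The log2 fold change was 0.55 with a standard error of 0.59, and 0.30 with the block, whose adjusted p was 0.650. Across the alternatives the fold change was as low as 0.12, and it was 0.39 to 0.76 with an array or set left out. In U87-MG it was well above background on 1 of 4 control and 2 of 4 knockdown arrays and was not tested. OIP5, the coding gene on the opposite strand nearby, was at -0.62 in A172 (lower in 3 of 3 pairs, adjusted p 1.00, and 0.363 with the block) and was not tested in U87-MG.

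The OIP5-AS1 promoter window is shown because this RNA carries the calls made with the block. It is chr15:41283740-41284039, plus strand, GRCh38.p14, from RefSeq, with capitals for the same motifs:
OIP5-AS1: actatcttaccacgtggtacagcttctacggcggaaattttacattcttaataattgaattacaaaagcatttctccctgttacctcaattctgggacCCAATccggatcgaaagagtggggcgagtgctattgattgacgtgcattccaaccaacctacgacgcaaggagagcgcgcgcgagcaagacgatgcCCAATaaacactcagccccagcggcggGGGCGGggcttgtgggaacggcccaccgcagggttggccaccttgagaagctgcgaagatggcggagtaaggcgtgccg
It holds 2 matches to CCAAT and 1 to GGGCGG, all on the plus strand, and 0 to TATAAA. Its GC content is 54.3%, that of the MALAT1 window 73.7%, and the median of all windows 58.7%.

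H19 and MEG3 are imprinted lncRNAs, expressed from the maternal chromosome in normal tissue. H19 by probe A_19_P00323082 was at -2.34, -0.55 and -1.50 in A172 control sets and at -0.26, -0.38 and -1.19 after knockdown. It is higher in each of 3 pairs, most of all in set 1, and the arms overlap. The log2 fold change of 0.85 was not called (standard error 0.46, p 0.0860, adjusted p 1.00, and 0.467 with the block), and in fits without the block it was 0.24 when set 1 was left out and 1.31 when the control array of set 2 was. Its other probe, A_24_P52697, was at 0.64 and higher in 2 of 3 A172 pairs, having been well above background on 1 of 3 control and 3 of 3 knockdown arrays, so that it was tested through the knockdown group. That value was 0.29 without the control array of set 1, 1.02 without set 3 and 0.13 under normexp correction with quantile normalization, and that of the first probe was 0.37 under the same correction. In U87-MG the first probe was at -0.13, with 1 of 4 pairs higher, and the second was above background on no array.

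MEG3, a lncRNA described as a growth suppressor, had no call in either line. Its brightest probe, A_32_P40547, was at 4.55, 5.75 and 5.09 in A172 control sets and at 4.78, 5.86 and 4.95 after knockdown. The U87-MG values were 5.83, 5.81, 5.66 and 5.20 in control and 5.67, 5.85, 5.31 and 5.29 after knockdown. The arms overlap in both lines, sets differ more than arms, and the log2 fold changes were 0.06 and -0.10, with 95% intervals of -0.25 to 0.38 and -0.37 to 0.18 with the block. The 4 MEG3 probes tested in A172 gave -0.08 to 0.19, and the 3 tested in U87-MG gave -0.12 to 0.01. The A172 pairs of A_19_P00316675 disagreed, with differences of 1.43, -0.35 and -0.52, and its fold change of 0.19 was -0.43 without set 1 and 0.54 without set 3. MEG3 probe A_19_P00316398 was above background on every A172 array, at -0.37 to 0.32, and on 0 of 8 U87-MG arrays, a difference between lines that cannot be told apart from slide and scan. A_19_P00316396 was above background on no array of either line.

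GAS5, a snoRNA host that accumulates when growth stops, was at 2.76, 1.89 and 1.94 in A172 control sets and at 2.82, 1.91 and 1.88 after knockdown. Its pairs are nearly level, and set 1 is highest in both arms. U87-MG gave 1.79, 1.85, 1.30 and 1.64 in control and 1.49, 1.44, 1.36 and 1.54 after knockdown, lower in 3 of 4 pairs with overlapping arms. The log2 fold changes were 0.00 and -0.19 (standard errors 0.31 and 0.27), with blocked 95% intervals of -0.29 to 0.30 and -0.45 to 0.07. SNHG1, the other snoRNA host, was well above background on 1 of 3 arrays of each A172 arm and on no U87-MG array, and was not tested. Its A172 values of -3.43, -4.84 and -4.73 in control and -2.81, -3.36 and -3.93 after knockdown are higher in each pair, though in each arm 2 of the 3 lie below the detection call.

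PVT1, a lncRNA transcribed beside MYC, has the most probes, 7 tested in A172 and 8 in U87-MG. Its brightest, A_19_P00320749, was at 4.53, 5.21 and 5.04 in A172 control sets and at 4.47, 5.33 and 5.05 after knockdown. Its U87-MG values were 4.91, 5.04, 3.90 and 4.36 in control and 5.17, 4.85, 4.28 and 4.47 after knockdown. The arms overlap in each line, and the log2 fold changes were 0.03 and 0.14. Over all tested PVT1 probes they were -0.26 to 0.17 in A172 and -0.09 to 0.15 in U87-MG, none called, with a lowest blocked adjusted p of 0.636 and 0.561. PVT1 probe A_19_P00321075 was above background on 2 of 3 arrays of each A172 arm, and A_33_P3357748 on at most 1 array of a group in either line, and these were not tested there. The probes split in how they follow the sets: the mean level of the pairs spans 2.28 log2 units in A172 for A_21_P0005949 and 0.07 for A_19_P00317180. MYC itself was at 0.29 in A172 and 0.13 in U87-MG, not called with or without the block (adjusted p 0.758 and 0.684 with it).

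LINC00673, a lncRNA next to SOX9, gave unlike values by probe. Its name and LINC00511 have both been used for transcripts of that locus, and which transcript each probe reads was not tested. Probe A_19_P00319646, the one assigned by its name, was at -3.95, -2.82 and -2.67 in A172 control sets and at -5.84, -5.14 and -4.06 after knockdown. It is lower in 3 of 3 pairs and the arms do not overlap, but the mark for signal over background was present for 2 of 3 control and 0 of 3 knockdown arrays, and so it was not tested. The mean of the 3 control arrays, 1 of them without the mark, was 1.61 times the mean detection limit of the knockdown arrays, which gives no strict lower bound. Its knockdown values lie below the detection limit, and the probe was picked from a list made on these same arrays, so that its direction is no independent evidence. In U87-MG it was above background on no array.

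The other LINC00673 probes had signal well over background throughout. A_21_P0009412 was at -1.60, -0.25 and 0.12 in A172 control sets and at -1.60, -0.59 and -0.50 after knockdown. The U87-MG controls were at -0.65, -0.70, 0.13 and -1.36 and the knockdown arrays at -0.92, -1.42, -0.23 and -1.61. It is lower in every pair of both lines, level in set 1 of A172, and the arms overlap, with log2 fold changes of -0.32 and -0.40 and a blocked adjusted p of 0.570 and 0.218. In fits without the block its A172 value was -0.83 without the control array of set 1 and 0.03 without the knockdown array. Its U87-MG value was -0.14 without the control array of set 3 and -0.67 without the knockdown array. A_21_P0009360 was at -0.19 in A172 and at 0.21 in U87-MG, where it was higher in 4 of 4 pairs (blocked adjusted p 0.465), and the difference between lines of -0.40 was not called (adjusted p 1.00, and 0.670 with the block). With an array or set left out and no block, this probe was at -0.55 to 0.36 in A172 and at 0.04 to 0.38 in U87-MG.

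LINC00152 itself, known as CYTOR, was called lower in both lines, as a check of the knockdown. CYTOR probe A_24_P273143 had log2 fold changes of -2.61 and -2.73 (adjusted p 0.000731 and 4.96e-05), lower in 3 of 3 and 4 of 4 pairs. MIR4435-2HG, whose transcripts resemble it closely, was at -2.44 and -2.97 by probe A_21_P0012079. Under normexp correction with quantile normalization both stayed called, with U87-MG values of -1.77 and -1.95. They belong to a list of other glioma-linked lncRNAs, 25 of them with a probe, in which these 2 probes were the calls without the block in each line. With the block 8 of 55 tested probes were lower and 1 higher in A172, and 3 of 40 lower and 0 higher in U87-MG, beside 3.26% and 4.19% of all probes called. Of the lower ones, 3 in each line are the CYTOR probe and 2 probes of MIR4435-2HG. The remaining 1 of 3 tested MIR4435-2HG probes was at -0.31 in each line and was not called with the block. MIAT, a nuclear lncRNA, fell in A172 by that model for 5 of 12 tested probes, at -1.66 to -0.59 (adjusted p 0.0152 to 0.178, lower in 3 of 3 pairs each). The 1 higher probe of the list in A172 is that of MIR17HG, the host of a microRNA cluster, at 1.45. It was well above background on 1 of 3 control and 3 of 3 knockdown arrays and was tested through the knockdown group, so that its call is no evidence of a rise. Under normexp correction without the block the 5 MIAT values were -0.48 to -0.24 and MIR17HG was at 0.25. In fits without the block, MIAT probe A_19_P00321068 was at -1.09 without the knockdown array of set 2. MIAT probe A_19_P00315524 was at -0.38 without the knockdown array of set 1. MIR17HG was also at 0.75 without the control array of set 3 and at 2.30 without that of set 1.

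The snoRNA host, speckle protein, imprinted, neighbour and RNA quality lists held few calls, and 0 without the block in limma, with 0 to 1 probe a list and line at an unadjusted p under 0.05. Of the 43 tested probes of other snoRNA host genes 0 were called in either line with the block, with 5 in A172 and 7 in U87-MG under that p, beside 10.7% and 16.8% of all probes (medians -0.05 in A172 and -0.10 in U87-MG). Of 31 probes for paraspeckle and nuclear speckle proteins the block gave 2 lower in A172 and 1 in U87-MG, all of NUDT21, a subunit of the cleavage factor that helps choose the end of NEAT1 transcripts. Of all probes the block called 3.26% in A172 and 4.19% in U87-MG, beside which these counts and those of the next lists are too small to be set apart. NUDT21 was at -1.37 and -0.64 in A172 (adjusted p 0.0126 and 0.0561) and, by probe A_24_P287756, at -0.72 in U87-MG (0.0817), lower in every pair. The mean of U87-MG set 3 lay -3.17 from the other sets for that probe, and without the block its value was 0.03 when the knockdown array of set 3 was left out and -1.56 when the control array was. Other imprinted genes had 15 tested probes in A172 with GRB10 lower (-0.81, 0.0434) and PEG10 higher (0.51, 0.183), and 8 in U87-MG with PLAGL1 higher (0.61, 0.0592). PEG10 without the block was at 0.91 and 0.20 when the control or the knockdown array of set 1 was left out. Genomic neighbours of the lncRNAs had 0 of 15 called in A172 (1 under that p) and 1 of 11 in U87-MG, SOX9, higher at 0.81 (0.130, 4 of 4 pairs). SOX9 too was low in U87-MG set 3 (-2.93), and without the block it was at -0.04 when the control array of that set was left out and at 1.42 when the knockdown array was. Among 13 probes for RNA quality and stress, CDKN1A was lower in both lines (-0.91 and -0.78, 0.0731 and 0.0825) and HPRT1 in A172 (-1.18, 0.0304). In each line 5 of these 13 had an unadjusted p under 0.05 in limma with the block. Beside them stand 10.7% of all probes in A172 and 16.8% in U87-MG, and whether the counts depart from those shares was not tested. The part of these genes in the values of the lncRNAs was not tested either. Without the block, CDKN1A in U87-MG was at -0.39 when the control array of set 3 was left out and at -1.17 when the knockdown array was, and HPRT1 at -0.65 without the control array of set 1. Under normexp correction without the block, values were lower in size by more than 1.5 times for NUDT21 probe A_24_P287756 (-0.68 in A172 and -0.29 in U87-MG), GRB10 (-0.29), PEG10 (0.12), PLAGL1 (0.33), SOX9 (0.31) and HPRT1 (-0.62).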

How the data were processed

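RNA of 14 samples was hybridized, each alone, to Agilent arrays. Per the file headers, Feature Extraction 11.5.1.1 gave a background-subtracted processed signal, an intensity, for 58717 non-control spots an array; the deposited table holds log2 values with the same distribution in every array and entered as an alternative. Processed signals were log2-transformed and scaled to each array's 75th percentile, spots with an outlier mark were dropped, and spots averaged by probe. limma 3.58.1 (R 4.3.3) fitted 4 group means over all arrays, with Benjamini-Hochberg adjustment within each line; code was checked on simulated data. As a check of the pairing, each array's deviations from its group mean were correlated between control and knockdown arrays of a line. Same-number arrays gave 0.675 to 0.794 in A172 and 0.373 to 0.864 in U87-MG. Different numbers gave -0.701 to -0.0436 and -0.772 to 0.411. Deviations cancel within a group, which by itself pushes the values of different numbers down. The p-values measure spread between experiments labelled independent. Gene names come from RefSeq (29033 probes). Named genes are all probes of the 10 lncRNAs, LINC00152, members of the lists called in either line with or without the block, and otherwise the brightest probe of genes sharing a locus or partner; further cell markers, and genes low in A172 set 2, were named after their values were seen. The members and lists were chosen with earlier results of these data known: snoRNA hosts, speckle proteins, imprinted genes, neighbours, other lncRNAs, RNA quality and cell markers. Alternatives were normexp with quantile normalization (median signal, offset 50), median and quantile scaling, the deposited values, 2 other filters, outlier spots kept, each line by itself, the block, trended robust variance, FDR 0.05 and leaving out each array or set. Figures used matplotlib 3.10.9.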

Additional observations from a re-analysis of the deposited data

How the results depend on the processing

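The 0 called lncRNA probes in each line stayed 0 in limma under every alternative without the block, left-out arrays and sets included (unadjusted p under 0.05: 0 in A172 and 1 in U87-MG as first fitted), and the replicate block gave 1 in each line and changed no other lncRNA call. With the block and a second change, chosen after seeing the data, the A172 count of 1 became 4 with normexp, 3 with the filter of 1 array and 2 with no filter (2 of each by LINC00673 and SNHG1 probes with values below detection), 3 with trended robust variance and 0 at FDR 0.05, and the U87-MG count of 1 became 0 with normexp, the deposited values, no filter and FDR 0.05. Leaving out a set gave 0 to 3 in A172 and 0 to 1 in U87-MG. The share of all probes called in these fits with the block and a second change is not given, so these counts cannot be set beside it. The counts over all probes that follow are from fits with 1 change only. Over all probes, the 52 calls in A172 became 34 with no filter, 14 with the line by itself (7 lower and 7 higher, against 39 and 13), 924 with the block and 27 at FDR 0.05, and 4 (without A172 set 3) to 127 (without U87-MG set 3) when an array or set was left out. The 11 in U87-MG became 41 with normexp, 918 with the block and 7 at FDR 0.05, and 5 to 17 with left-out arrays or sets. The 2 for the line difference became 0 with normexp, 1 with quantile scaling, 1 with the deposited values, 89 with the block and 1 at FDR 0.05, and 0 to 2 with left-out arrays or sets. The median of the A172 lncRNA probes, -0.07, became -0.15 with the filter of 1 array and -0.14 with no filter, which add dim probes, and -0.13 to 0.21 with left-out arrays or sets; in U87-MG it was -0.11 to -0.03. Apart from the construction of a setting, the cause was not tested. Of 500 values of single lncRNA probes under settings that kept every array, 491 moved by less than the spread between pairs, 7 by more and 2 became calls, those of OIP5-AS1. Of 1050 such values with an array or set left out, 109 moved by more than that spread; without the block, NEAT1 probe A_19_P00318409 in A172 was at -2.01 without the control array of set 2 and 0.26 without its knockdown array, and MALAT1 probe A_21_P0010980 at -1.13 and 0.66. Signal over background limits 9 of 35 probes in A172 and 11 in U87-MG, which were not tested.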

Other observations

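Markers of other cell types were looked at beside the lncRNAs. Of 8 probes tested for glial and mesenchymal markers in A172 and 6 in U87-MG, 0 were called (0 at an unadjusted p under 0.05), and with the block CD44, a surface receptor of mesenchymal cells, fell in A172 (-1.13, limma adjusted p 0.00807, lower in 3 of 3 pairs) by 1 of its 2 tested probes, the other being at -0.24 (0.694 with the block, lower in 2 of 3 pairs). The first was at -0.67 in the fit without the block when the control array of set 1 was left out. With the block in limma, 3 of these 8 A172 probes had an unadjusted p under 0.05, beside 10.7% of all probes. They were that CD44 probe, FN1 (-0.44, p 0.0201) and VIM (-0.36, p 0.0291), and FN1 and VIM were not called. U87-MG had 0 of 6 under that p, beside 16.8%. The median log2 fold change of these markers was -0.23 in A172 (0.02 over all probes) and 0.15 in U87-MG (-0.02). Whether the A172 count departs from the share of all probes was not tested. GFAP was well above background on 1 of 6 A172 arrays and 0 of 8 U87-MG arrays, and S100B on none. Of 6 tested probes for epithelial and keratinocyte markers in A172, 4 rose without the block: KRT14 by 2 probes (3.35 and 3.36, adjusted p 0.0200 and 0.0100), KRT16 (3.29, 0.0160) and KRT17 (2.37, 0.144), each higher in 3 of 3 pairs, and all 4 were called with the block (0.00648 to 0.0157). The other 2, not called, were another KRT14 probe (0.71, 1.00) and KRT5 (-0.12, 1.00), while CDH1 was above background on no array and EPCAM on 1 of 6. Of all A172 probes, 0.183% were called without the block and 3.26% with it. The marker lists were chosen with earlier results of these data known, so the keratin p-values are no independent evidence of a rise. These keratin calls did not all hold when a set was left out. The adjusted p then rose to 0.530 for KRT14, 0.521 for KRT16 and 1.00 for KRT17. Where lost, log2 fold changes were 3.01 to 3.41, 3.04 to 3.20 and 2.27 to 2.48. The KRT17 call was lost in 19 of 31 alternatives. They include quantile scaling, the deposited values, no filter and the line by itself (0.203 to 0.238). Leaving out any single A172 array also lost the KRT17 call (0.225 to 0.779, at 2.03 to 2.60). So did leaving out either array of U87-MG set 1 or 2 (0.224 to 0.235). Under normexp correction with quantile normalization all 4 stayed called, at 2.00, 1.09, 1.76 and 0.98. In U87-MG 0 of 1 tested probe was called, and 0 had an unadjusted p under 0.05. Haematopoietic (4 and 3 tested probes) and neuronal markers (4 and 3) held 0 calls in either line with or without the block, with 0 at an unadjusted p under 0.05 except for 1 neuronal probe in U87-MG with the block. The part of these markers in the lncRNA values was not tested.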
